A study of Mus musculus with 19 samples.

Results

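Cytosolic ribosomal protein genes encode the proteins that, with ribosomal RNA, make up the small and large subunits of the ribosome of the cytoplasm. Members were chosen by symbol: Rps or Rpl followed by a number and at most 1 letter, together with Rplp0, Rplp1, Rplp2 and Rpsa. The array table held 28 such genes of 15781 genes in all, 14 of the small and 14 of the large subunit. RefSeq lists 81 protein-coding genes that meet the same rule, and 27 of them were measured here. The remaining member, Rps4l, entered through its current symbol (the annotation calls it Rps4y2), and RefSeq classes it as a transcribed pseudogene. Counts are therefore also given without it. No filter on low values was used, so all 28 were tested. Of the members, 15 were measured by 1 probe set each, and the 28 together by 65.

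Ribosomal proteins are made in near equal amounts and are assembled on ribosomal RNA in the nucleolus before export. Their mRNAs typically begin with a C followed by a run of pyrimidines, the TOP element, through which the kinase mTOR and the RNA-binding protein Larp1 control their translation. In blood cells, lowered dosage of Rps19 or Rps14 is known for impairing red cell production, and some members have paralogues that are used in a few tissues, such as Rpl3l in striated muscle and Rpl39l in the testis.

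RNA came from sorted myeloid progenitors of mouse bone marrow, hybridised to Affymetrix exon arrays. Common myeloid progenitors (CMP) give rise to granulocyte-monocyte progenitors (GMP) and to megakaryocyte and erythroid progenitors. Wild-type cells (3 CMP and 4 GMP arrays) and Dnmt3a-/- cells, which lack the de novo DNA methyltransferase Dnmt3a (3 CMP and 3 GMP arrays), came from C57Bl/6J mice. Further GMP arrays were PR+/- (2 arrays) and PR+/-, Dnmt3a-/- (4 arrays). PR is read here from the series title as the PML-RARA fusion of acute promyelocytic leukaemia. Strain for the PR+/- groups, and age, the way Dnmt3a was deleted, and the promoter of the fusion for all groups, are not stated in these sources. The labels do not say that arrays are separate animals, so the p-values measure the spread between these samples, which may be technical. In sorted bulk RNA, fewer cells of a type and less RNA per cell cannot be told apart.

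Dnmt3a was at 5.82 to 6.49 (log2 intensity) on the 10 Dnmt3a-/- arrays and at 7.07 to 7.65 on the 9 others. The labels do not say which exons were deleted. Array medians lay between 53.0 and 56.8 on the linear intensity scale. Levels below are log2 intensities, averaged over the probe sets of a gene. Changes are differences of log2 levels with standard errors, and a gene was called where its p-value from limma, adjusted by the Benjamini-Hochberg method over all 15781 genes, was below 0.05. The title numbers of the Dnmt3a-/- arrays (22298 to 22303) all lie above those of the wild-type arrays (21986 to 22012). What these numbers count is not given, and they cannot be told apart from genotype. Titles of the PR+/- arrays are written differently, and a run of their own cannot be told apart from an effect of PR. The Y-linked genes Eif2s3y and Kdm5d had a mean level of at most 3.25 on all 6 Dnmt3a-/- arrays without PR, on wild-type CMP replicate 3, on wild-type GMP replicate 4 and on PR+/-, Dnmt3a-/- replicate 2, and of at least 6.73 on the other 10. Immediate early and heat shock genes (14 measured) averaged 7.62 to 8.57 on 5 arrays (wild-type CMP replicate 1, wild-type GMP replicates 1 and 2, PR+/-, Dnmt3a-/- replicates 1 and 2) and 5.96 to 7.05 on the other 14.

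The transcription start sequences of some members named in the results are shown to let a reader see the TOP-like pyrimidine run in this family. They are not a sample of the family, because all of them hold the run and many other entries do not. RefSeq promoter entries (build GRCm38.p6) matched 23 members with 29 start sites; Rps4l, Rpl8, Rps20, Rpl21 and Rps14 had none. Each line gives 15 bases before and 15 bases after the annotated start, 5′ to 3′, with a C followed by at least 4 further bases that are each C or T in capitals where that run begins within 10 bases of the start. The positions are chr3:90213634-90213663 (minus strand) for Rps27, chr12:28635939-28635968 (minus) for Rps7, chr7:118116133-118116162 (minus) for Rps15a, chr17:33955651-33955680 (minus) for Rps18, chr9:120571502-120571531 (plus) for Rpl14, chr16:10170213-10170242 (plus) for Rpl39l and chr17:24727811-24727840 (plus) for the first of 2 Rpl3l entries.
Rps27: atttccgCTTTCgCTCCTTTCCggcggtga
Rps7: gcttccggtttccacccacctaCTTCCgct
Rps15a: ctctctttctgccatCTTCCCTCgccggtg
Rps18: tacgtcaCTTCCgCTCTCTCTTCCacagga
Rpl14: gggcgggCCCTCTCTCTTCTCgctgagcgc
Rpl39l: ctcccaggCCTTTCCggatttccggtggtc
Rpl3l: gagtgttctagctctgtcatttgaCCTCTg

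Such a run, read on the gene's own strand and beginning within 10 bases of the annotated start, was present in 14 of the 29 member entries (48.3%). It was present in 29.7% of the 32851 entries of all genes. All start sequences printed above hold it. The entries of Rplp0, Rps13, Rpl4, Rpl26, Rps25, Rpl37, Rpsa, Rpl23 and Rps3, and the other Rpl3l entry, do not. Some entries of Rpl22, Rps19, Rps27l and Rpl10a also lack it. The 250 bases before the start held a median of 18 CG dinucleotides in the members and 6 in all entries, and the median ratio of observed to expected CG was 0.81 against 0.37. CG dinucleotides are the sites that Dnmt3a methylates. The upstream stretches of the members called for Dnmt3a that had an entry, and of Rpl39l, follow with each CG in capitals. They lie at chr3:90213649-90213898 (minus strand), chr12:28635954-28636203 (minus) and chr16:10169978-10170227 (plus).
Rps27: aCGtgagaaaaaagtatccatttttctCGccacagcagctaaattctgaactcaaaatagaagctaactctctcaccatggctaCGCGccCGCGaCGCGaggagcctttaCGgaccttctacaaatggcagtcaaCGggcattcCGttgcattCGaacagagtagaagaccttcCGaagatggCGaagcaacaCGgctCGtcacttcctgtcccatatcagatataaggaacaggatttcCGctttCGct
Rps7: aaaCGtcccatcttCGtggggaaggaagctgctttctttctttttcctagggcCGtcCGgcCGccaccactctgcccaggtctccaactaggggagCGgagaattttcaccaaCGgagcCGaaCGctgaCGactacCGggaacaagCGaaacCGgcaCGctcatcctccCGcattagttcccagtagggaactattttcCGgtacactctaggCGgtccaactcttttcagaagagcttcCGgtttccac
Rpl39l: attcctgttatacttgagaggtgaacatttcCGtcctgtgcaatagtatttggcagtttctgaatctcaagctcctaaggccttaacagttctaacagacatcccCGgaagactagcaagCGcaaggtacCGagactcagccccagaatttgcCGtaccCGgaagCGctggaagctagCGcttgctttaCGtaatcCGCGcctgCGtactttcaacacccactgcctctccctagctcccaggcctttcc

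The stretch before Rps27 held 18 CG (observed over expected 1.23), that before Rps7 18 (0.949), and that before Rpl39l 12 (0.749). The muscle paralogue Rpl3l had 2 and 3 at its 2 entries (0.113 and 0.159). DNA methylation was not measured on these arrays, and a match is a description of the sequence.

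The spread between arrays of a group differed among the members. The median standard deviation within groups was 0.35 for the 15 members with 1 probe set, where all 802 genes with 1 probe set had 0.58. For the 8 members with 3 or more probe sets it was 0.26, against 0.23 for all genes of that kind. Rps14, Rpl22 and Rps3 had the lowest values (0.09, 0.10 and 0.10), and Rpl37 and Rpl39l the highest (0.90 and 1.06). Over all arrays Rps9, Rps20 and Rps14 averaged 12.72, 12.69 and 12.63, and Rpl39l, Rpl3l and Rpl31 averaged 3.68, 4.04 and 5.36. The Rpl31 level averages probe set 4352408, at 9.33 to 10.18, with the dim probe sets 4979714 and 5566831, at 1.17 to 5.15. Signals of different probe sets depend on the probes, so no order of abundance is read from these levels.

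**Figure D1:**
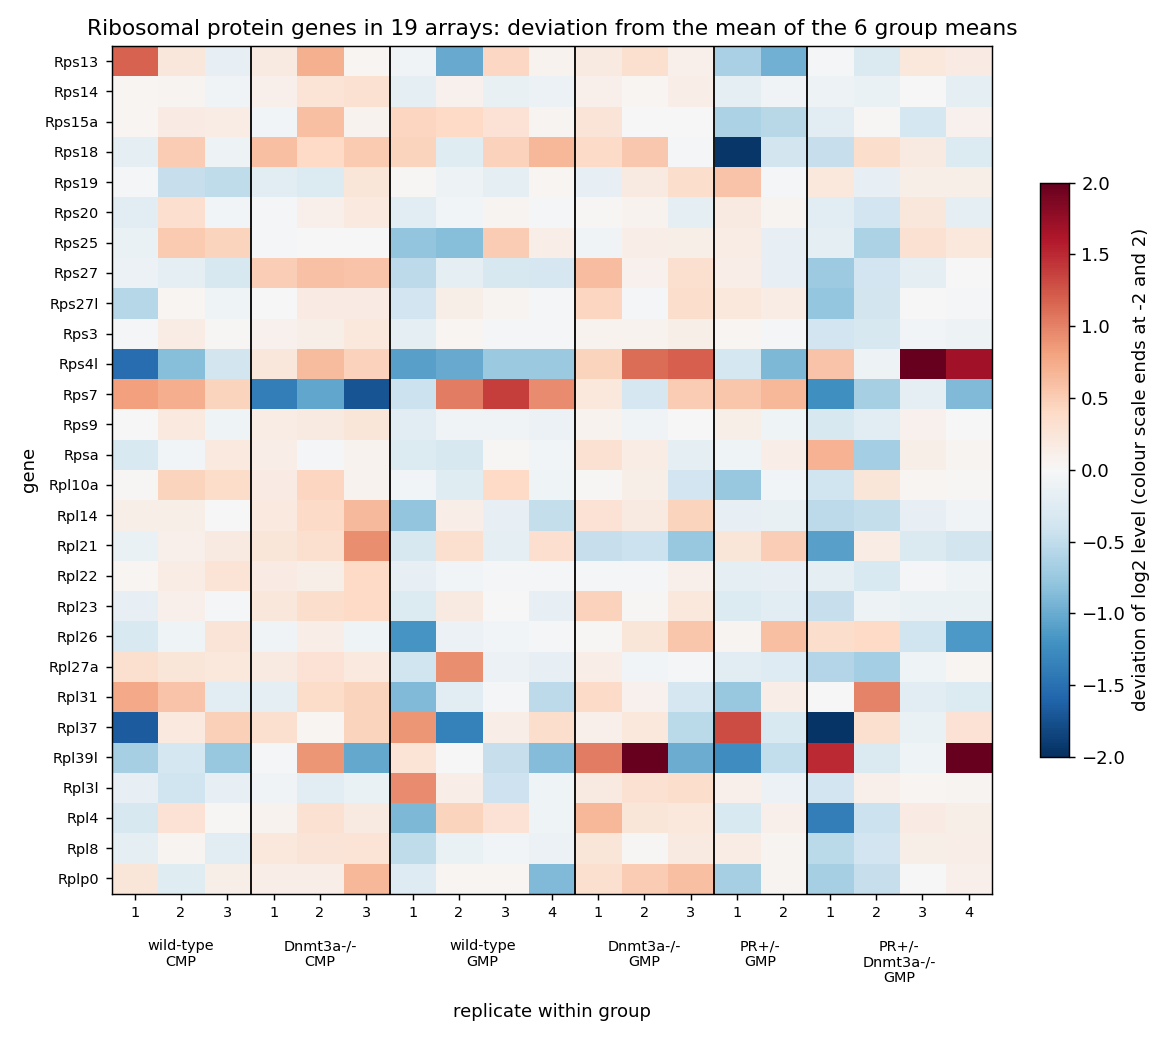
Log2 level of each of the 28 genes (rows) on each of the 19 arrays (columns, by group and replicate) as the deviation from the mean of the 6 group means, blue for lower and red for higher, with the colour scale ending at -2 and 2. Rps4l is red on nearly every Dnmt3a-/- array and Rps7 is blue on the Dnmt3a-/- CMP and PR+/-, Dnmt3a-/- arrays, while rows such as Rps3, Rps9 and Rps14 stay pale.

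The first question was what loss of Dnmt3a did to these genes in CMP and in GMP without PR. Rps4l and Rps27 were higher in both cell types, Rps7 was lower in CMP, and the other members did not pass the test. In CMP 3 of 28 members were called, 2 higher and 1 lower (2 of 27 without Rps4l), where 1.28% of all genes were called (0.919% higher and 0.361% lower). In GMP 2 of 28 were called, both higher (1 of 27 without Rps4l), where 1.33% of all genes were called (0.9% higher). For the mean of both cell types, 3 of 28 passed, 2 higher and 1 lower, against 5.75% of all genes (3.54% higher and 2.21% lower).

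Rps4l, a gene related by name to the small subunit gene Rps4x, was at 6.47, 7.15 and 7.63 on the wild-type CMP arrays and at 8.23, 8.62 and 8.46 on the Dnmt3a-/- CMP arrays. In GMP it was at 6.92, 6.99, 7.26 and 7.25 in the wild type and at 8.44, 9.12 and 9.20 without Dnmt3a. The groups did not overlap in either cell type. The change was 1.35 ± 0.27 in CMP (2.56-fold, adjusted p = 0.0266) and 1.81 ± 0.25 in GMP (3.51-fold, adjusted p = 0.00352), and 1.58 ± 0.18 for the mean of both (adjusted p = 0.00046). In CMP the call was lost when any 1 array other than wild-type replicate 3 was left out (adjusted p = 0.0537 to 0.114). In GMP and for the mean of both it held without any 1 array (highest adjusted p = 0.0254 and 0.00206).

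The PR+/- arrays had Rps4l at 7.64 and 7.11, and the PR+/-, Dnmt3a-/- arrays at 8.56, 7.90, 10.13 and 9.67. All 4 arrays without Dnmt3a were again above both arrays with it, though the change of 1.69 ± 0.59 did not pass (adjusted p = 0.62). Across the whole series, the 10 Dnmt3a-/- arrays lay at 7.90 to 10.13 and the other 9 at 6.47 to 7.64. Only 15 of the 15781 genes (0.0951%) separated every Dnmt3a-/- array from every other, 10 of them higher without Dnmt3a (0.0634%), and Rps4l was the only member among them. The 15 include Dnmt3a itself.

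Both probe sets of Rps4l were higher without Dnmt3a. Probe set 4629070 changed by 0.89 in CMP and 1.12 in GMP, and probe set 5041546 by 1.82 and 2.50, with no overlap between the groups in either. Rps4x was not analysed here, and binding of its RNA by these probes was not tested. The Y-linked level moved with genotype, being low on all 6 Dnmt3a-/- arrays without PR. On the wild-type arrays with a low Y-linked level, CMP replicate 3 and GMP replicate 4, Rps4l was at 7.63 and 7.25, below every Dnmt3a-/- array. The 7.63 was the highest level in wild-type CMP. With the Y-linked level as a covariate the change was 0.99 in CMP (adjusted p = 0.214), 1.41 in GMP (adjusted p = 0.0799) and 1.20 for the mean of both (adjusted p = 0.0557). Within the PR+/- groups, the 3 PR+/-, Dnmt3a-/- arrays with a high Y-linked level were at 8.56, 10.13 and 9.67, above the 2 PR+/- arrays, which also had a high one. The PR+/-, Dnmt3a-/- array with a low Y-linked level, replicate 2, was the lowest of its group, at 7.90. Without PR no Dnmt3a-/- array had a high Y-linked level, so its part in the change cannot be told apart from genotype there.

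Rps27, a zinc-binding protein of the small subunit, was at 11.34, 11.27 and 11.14 in wild-type CMP and at 11.96, 12.04 and 12.02 in Dnmt3a-/- CMP. In GMP its levels were 10.93, 11.28, 11.13 and 11.13 in the wild type and 12.08, 11.55 and 11.79 without Dnmt3a. Among the arrays without PR, every Dnmt3a-/- array was above every wild-type array. Rps27 rose by 0.76 ± 0.15 in CMP (1.69-fold, adjusted p = 0.0263) and by 0.69 ± 0.14 in GMP (1.61-fold, adjusted p = 0.0322), and by 0.72 ± 0.10 for the mean of both (adjusted p = 0.00173). The CMP call was lost without any 1 array other than wild-type replicate 1 (adjusted p = 0.0737 to 0.118). In GMP it was lost on leaving out replicate 1, 3 or 4 of the wild type, or replicate 1 or 3 of Dnmt3a-/- (adjusted p = 0.0551 to 0.154), while the call for the mean of both held without any 1 array (highest adjusted p = 0.00683) and was lost with the Y-linked covariate (adjusted p = 0.0509). With PR the difference went the other way. Rps27 was at 11.60 and 11.29 on the PR+/- arrays and at 10.73, 11.09, 11.27 and 11.47 on the PR+/-, Dnmt3a-/- arrays. That change of -0.31 did not pass, and the groups overlapped. Rps27 was measured by 1 probe set.

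Its paralogue Rps27l, a target of p53, was at 10.56, 11.17 and 11.04 in wild-type CMP and 11.14, 11.30 and 11.29 in Dnmt3a-/- CMP. In GMP it was at 10.75, 11.25, 11.18 and 11.09 in the wild type and 11.56, 11.11 and 11.48 without Dnmt3a. The groups overlapped in both cell types, and the change of 0.32 ± 0.13 for the mean of both did not pass (adjusted p = 0.156).

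Rps7, a small subunit protein that can also bind Mdm2, was at 7.43, 7.34 and 7.05 in wild-type CMP and at 5.23, 5.57 and 4.88 in Dnmt3a-/- CMP. In GMP it was at 6.18, 7.63, 7.99 and 7.55 in the wild type and at 6.83, 6.28 and 7.13 without Dnmt3a. The groups were far apart in CMP and overlapped in GMP. The change in CMP was -2.05 ± 0.38 (4.13-fold lower, adjusted p = 0.0207). In GMP it was -0.60 ± 0.35 (adjusted p = 0.368), and for the mean of both -1.32 ± 0.26 (adjusted p = 0.012). The CMP call was lost without any 1 array other than Dnmt3a-/- replicate 2 (adjusted p = 0.0501 to 0.108). The call for the mean of both held without any 1 array (highest adjusted p = 0.0353), and with the Y-linked covariate the change was -1.28 (adjusted p = 0.172). Rps7 too had 1 probe set.

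On the PR+/- arrays Rps7 was at 7.17 and 7.28, and on the PR+/-, Dnmt3a-/- arrays at 5.38, 5.94, 6.42 and 5.73. The groups did not overlap, and the change of -1.35 ± 0.27 did not pass over all genes (unadjusted p = 0.00138, adjusted p = 0.478).

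**Figure D2:**
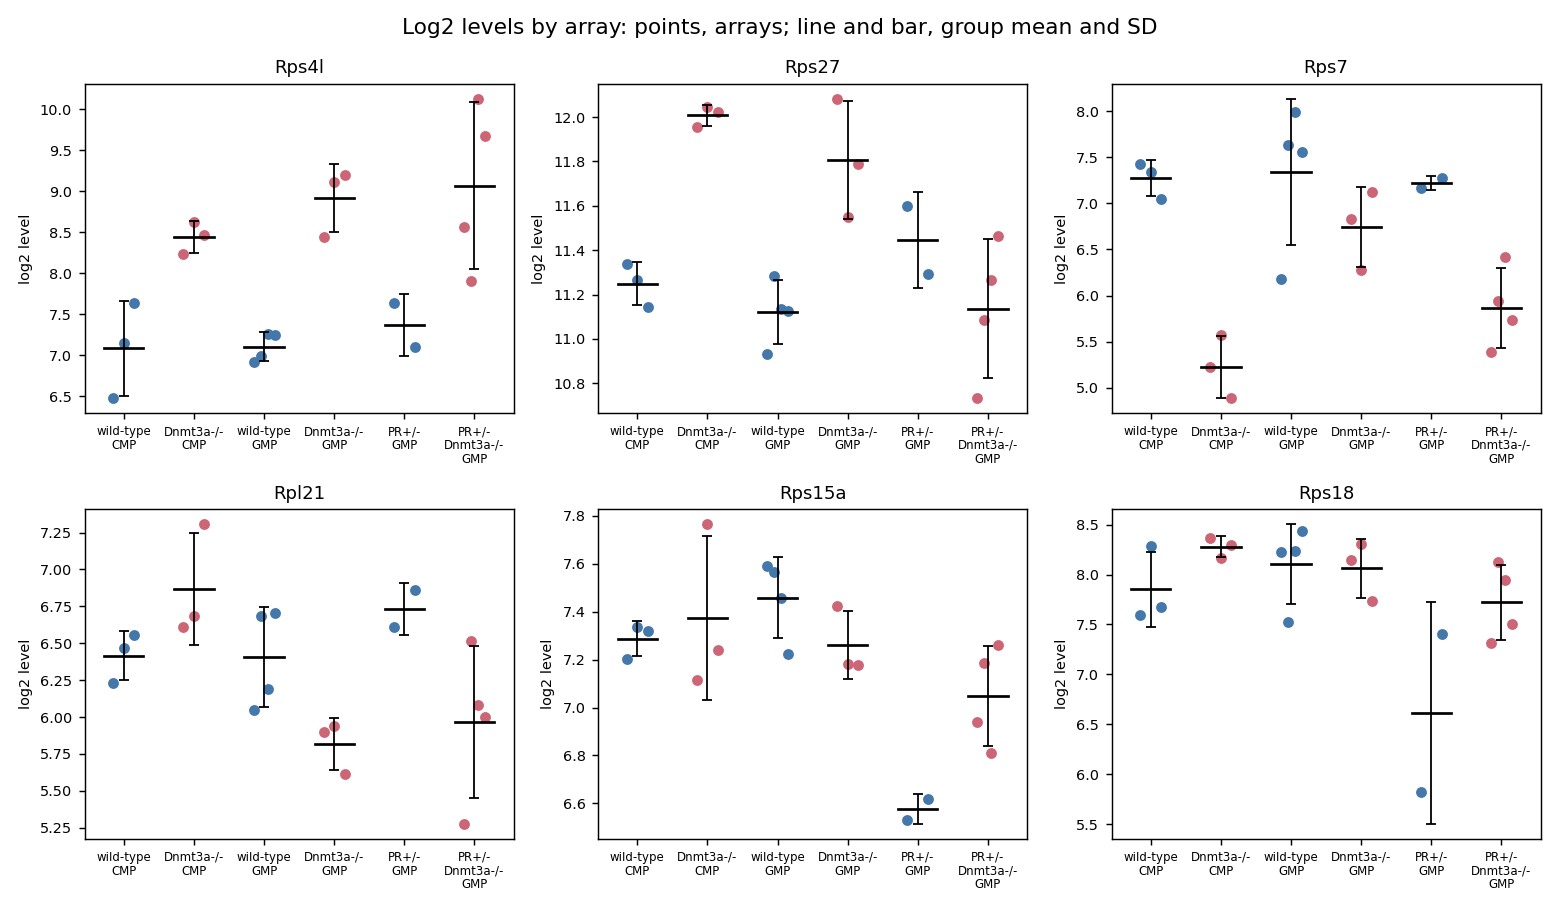
Log2 level (vertical axes) of Rps4l, Rps27, Rps7, Rpl21, Rps15a and Rps18 on each array (points, red for Dnmt3a-/- and blue for the others) in the 6 groups, with the group mean (line) and standard deviation (bar). All Rps4l points without Dnmt3a lie at 7.90 or above and the others at 7.64 or below; the other 5 genes overlap between some of the groups.

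Over all 28 members, the called ones included, more changes were above 0 than below without Dnmt3a. In CMP 22 of 28 changes were above 0, with a median of 0.17, where 42.7% of all genes were above 0 and their median was -0.04. In GMP 21 of 28 were above 0, with a median of 0.22, where 41.3% of all genes were above 0 and their median was -0.07. Without Rps4l these medians were 0.16 and 0.18. By subunit, the small subunit median was 0.14 in CMP and 0.18 in GMP, and the large subunit median 0.23 and 0.32. Among the 8 members with 3 or more probe sets the medians were 0.13 and 0.22. Quantile normalization gave member medians of 0.16 and 0.22, and shifting the arrays to 1 median gave 0.15 and 0.24. The median of all genes depended on signal level. With brighter probe sets only, it was 0.02 in CMP and -0.007 in GMP, over 12190 genes. The member medians were then 0.17 and 0.22, with 20 of 26 above 0 in each.

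Groups did not overlap, higher without Dnmt3a, for 7 members in CMP (10.1% of all genes) and for 7 in GMP (7.88% of all genes). Rpl8, Rpl14, Rps27 and Rps4l were among them in both cell types. Rpl21 was among the 7 in CMP, while in GMP it was lower without Dnmt3a, also with no overlap. Rps7 was lower in CMP with no overlap. Rpl14, of the large subunit, was at 8.29, 8.28 and 8.16 in wild-type CMP against 8.35, 8.54 and 8.81 without Dnmt3a, and at 7.38, 8.29, 8.0 and 7.69 in wild-type GMP against 8.45, 8.35 and 8.61. Its change for the mean of both was 0.48 ± 0.14 (adjusted p = 0.0622). Rpl8, a large subunit protein near the peptidyl transferase centre, changed by 0.36 ± 0.10 (adjusted p = 0.0506). Rplp0, the base of the ribosomal stalk, was at 7.89, 8.20, 8.19 and 7.26 in wild-type GMP and 8.48, 8.67 and 8.75 without Dnmt3a, a change of 0.74 ± 0.23 (adjusted p = 0.118).

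Other members with the largest changes did not pass either. In CMP Rpl37 changed by 0.60 ± 0.55, Rps25 by -0.29 ± 0.31 and Rpl31 by -0.15 ± 0.29 (adjusted p = 0.703, 0.753 and 0.876). In GMP Rpl21 changed by -0.59 ± 0.21 and Rps15a by -0.20 ± 0.16 (adjusted p = 0.167 and 0.513). For the mean of both, Rpl10a changed by -0.07 ± 0.13 and Rpl21 by -0.07 ± 0.15 (adjusted p = 0.776 and 0.809). The erythroid disease genes Rps14 and Rps19 changed by 0.20 ± 0.08 and 0.22 ± 0.13 (adjusted p = 0.163 and 0.321), Rpl22, which is known for a role in T cell development, by 0.08 ± 0.08 (adjusted p = 0.594), the laminin receptor gene Rpsa by 0.18 ± 0.11 (adjusted p = 0.354) and Rpl3l by 0.12 ± 0.17 (adjusted p = 0.698).

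Averages over markers of more mature cells differed between the same groups. The 8 measured mature neutrophil genes averaged 9.11 to 9.13 in wild-type CMP and 9.98 to 11.43 in Dnmt3a-/- CMP, and 8.77 to 9.37 and 9.74 to 11.06 in GMP. The 8 dendritic cell genes averaged 6.55 to 7.18 and 8.35 to 8.84 in CMP, and 4.85 to 5.54 and 6.56 to 6.77 in GMP. The 7 monocyte and macrophage genes differed the other way, at 7.31 to 7.76 in wild-type and 6.47 to 6.88 in Dnmt3a-/- CMP, and 7.91 to 8.14 and 7.26 to 7.42 in GMP. Among progenitor genes, the 7 measured erythroid and megakaryocyte priming genes averaged 7.20 to 7.68 in wild-type and 8.20 to 8.59 in Dnmt3a-/- CMP. In GMP the groups overlapped for them. The part of all these marker genes in the members' changes was not tested.

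Rpl39l, the paralogue of the exit tunnel protein Rpl39, was uneven among the arrays without Dnmt3a. It was at 2.94, 3.25 and 2.84 in wild-type CMP and 3.88, 3.60, 3.14 and 2.73 in wild-type GMP. Without Dnmt3a it was at 3.58, 4.49 and 2.58 in CMP, at 4.62, 6.22 and 2.61 in GMP, and with PR at 5.09, 3.31, 3.51 and 6.04. The highest of the 9 arrays with Dnmt3a was 3.88, and 5 of the 10 arrays without it exceeded that level while others did not. In both cell types replicate 2 was highest and replicate 3 lowest, and these replicates carry adjacent title numbers in CMP and GMP (22300 and 22301, 22302 and 22303). Whether adjacent numbers mark the same mouse is not given. The change was 0.54 ± 0.69 in CMP and 1.15 ± 0.65 in GMP (adjusted p = 0.808 and 0.347), 0.84 ± 0.47 for the mean of both (adjusted p = 0.294), and 1.76 ± 0.75 with PR (adjusted p = 0.624).

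Of the 4 probe sets of Rpl39l, 3 followed this pattern. On probe set 4515265 the Dnmt3a-/- GMP arrays ranged from 1.75 to 8.01 and the wild-type GMP arrays from 1.15 to 4.89. On probe set 4578616 the ranges were 1.81 to 6.68 and 2.07 to 3.17. The groups overlapped on both probe sets.

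**Figure D3:**
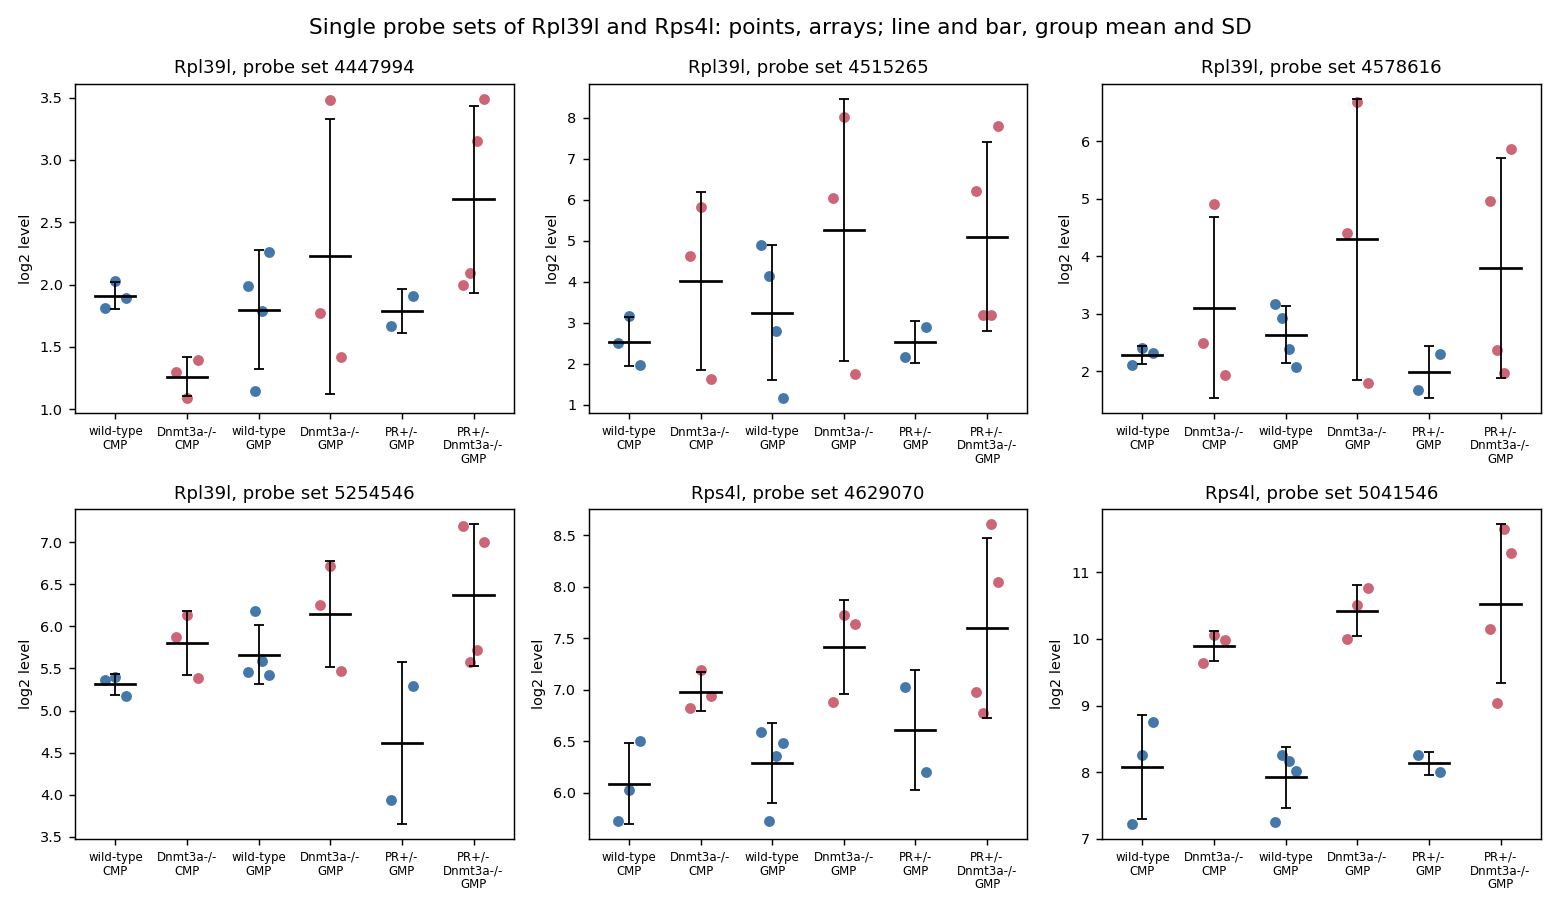
Log2 level (vertical axes, each panel on its own scale) of the 4 probe sets of Rpl39l and the 2 of Rps4l on each array (points) in the 6 groups, with group mean and standard deviation. The Rps4l probe sets shift as whole groups in CMP and GMP, while probe sets 4515265, 4578616 and 5254546 of Rpl39l spread among the arrays without Dnmt3a.

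A second question was whether the effect of Dnmt3a differed between CMP and GMP. None of the 28 members and 0.0% of all genes passed limma's test of that difference, and 2 members had an unadjusted p below 0.05 (1083 or 6.86% of all genes did). They were Rpl21, at -1.04 ± 0.30 for the effect in GMP minus that in CMP (unadjusted p = 0.00433), and Rps7, at 1.45 ± 0.52 (unadjusted p = 0.0146). The next largest differences were 0.62 ± 0.40 for Rpl31, 0.61 ± 0.95 for Rpl39l, -0.67 ± 0.76 for Rpl37 and -0.47 ± 0.33 for Rps18, with adjusted p from 0.853 to 0.948.

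GMP were then compared with CMP of the same genotype. Between the wild-type cells no member passed limma's test, where 4.3% of all genes did, and 1 member had an unadjusted p below 0.05 (16.3% of all genes did). That member was Rpl31, which lies near the exit tunnel. It was at 6.11, 5.92 and 5.13 in CMP and 4.47, 5.12, 5.31 and 4.82 in GMP. The change was -0.79 ± 0.27 (adjusted p = 0.143), and the groups overlapped. Probe set 4352408, at 9.43 to 10.18 on these arrays, changed by -0.15. The fall in the mean came mostly from the dim probe sets 4979714 and 5566831, at 1.7 to 4.9, the latter changing by -1.21. Rps13 changed by -0.57 ± 0.34 and Rps25 by -0.53 ± 0.29, Rpl3l by 0.39 ± 0.24, and Rpl37 and Rpl39l by 0.33 each, with adjusted p from 0.40 to 0.862.

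Without Dnmt3a, Rpl21 was lower and Rps7 higher in GMP than in CMP, so 2 of 28 members were called (2 of 27 without Rps4l), where 10.1% of all genes were (5.5% higher and 4.58% lower). Rpl21, of the large subunit, was at 6.61, 6.69 and 7.31 in Dnmt3a-/- CMP and 5.90, 5.94 and 5.62 in Dnmt3a-/- GMP. The groups did not overlap, and Rpl21 fell by 1.05 on the log2 scale (standard error 0.22, adjusted p = 0.00776), a call that held under each of the 16 other settings tried. Rpl21 was measured by 1 probe set, so other summaries of probe sets could not alter its change. In the wild type its levels were 6.23, 6.47 and 6.55 in CMP and 6.05, 6.68, 6.19 and 6.70 in GMP, a change of -0.01 ± 0.21. The test of the difference between the genotypes is the one given for Dnmt3a in GMP against CMP, which Rpl21 did not pass (adjusted p = 0.433).

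Rps7 rose by 1.52 ± 0.38 between the same arrays (adjusted p = 0.0206), with no overlap. That call was lost without CMP replicate 1 or 3 or GMP replicate 1 or 3 (adjusted p = 0.0599 to 0.0918). This comparison and that of Dnmt3a-/- with wild-type CMP share the Dnmt3a-/- CMP arrays, the group with the lowest mean level of Rps7. Rpl39l, Rps4l, Rpl37 and Rpl10a changed by 0.94 ± 0.69, 0.48 ± 0.27, -0.34 ± 0.55 and -0.30 ± 0.19 and did not pass (adjusted p from 0.349 to 0.829). Over all members the median change was -0.10 in the wild type (9 of 28 above 0) and -0.10 without Dnmt3a (11 of 28), where the medians of all genes were 0.04 and -0.01. Shifting the arrays to 1 median moved these member medians to -0.05 and -0.01. Single arrays moved them as well. The wild-type median was -0.02 without CMP replicate 2, -0.03 without GMP replicate 1 and -0.17 without CMP replicate 1. The Dnmt3a-/- median was -0.04 without GMP replicate 2, -0.06 without GMP replicate 3, -0.05 without CMP replicate 3 and -0.15 without CMP replicate 1.

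The third question was the effect of PR in GMP. Relative to wild-type GMP, Rps15a was lower in PR+/- GMP, and it was the 1 member called of 28 (1 of 27 without Rps4l), where 3.07% of all genes were called (0.881% lower). Rps15a, a small subunit protein, was at 7.59, 7.57, 7.46 and 7.22 in wild-type GMP and at 6.53 and 6.62 in PR+/- GMP. On the mean of its 2 probe sets, both PR+/- arrays were below every other array of the series. Probe set 5249200 changed by -1.29 against wild-type GMP, with no overlap. Probe set 5606861 changed by -0.48 and the groups overlapped, at 5.89 and 6.56 in PR+/- GMP and 6.29 to 7.12 in the wild type. Rps15a fell by 0.88 on the log2 scale (standard error 0.17, adjusted p = 0.0137). The group holds 2 arrays, and without replicate 1 or replicate 2 of it the adjusted p was 0.246 or 0.0661, with the remaining array assumed to vary like the other groups.

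Rps18, also of the small subunit, was at 8.22, 7.52, 8.23 and 8.43 in wild-type GMP and at 5.83 and 7.40 in PR+/- GMP. The PR+/- arrays lay below the wild type and far from each other, and the change of -1.49 ± 0.38 had an adjusted p of 0.0527. Rps18 was measured by 1 probe set. Rps13 changed by -0.66 ± 0.30, Rpl26 by 0.67 ± 0.42, Rpl37 by 0.50 ± 0.68 and Rps19 by 0.33 ± 0.20, with adjusted p from 0.275 to 0.779. Groups did not overlap for 5 members that were higher (16.1% of all genes) and 2 that were lower (12.3%). Marker averages differed here as well. The mature neutrophil genes averaged 9.98 and 10.09 in PR+/- GMP and 8.77 to 9.37 in wild-type GMP. The monocyte and macrophage genes were lower, at 7.38 and 7.52 against 7.91 to 8.14, and the dendritic cell genes overlapped. The part of these genes in the changes between PR+/- and wild-type GMP was not tested.

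Within the PR+/- background no member passed limma's test of Dnmt3a loss, as no gene of the 15781 did (0.0%), with 6 arrays in the fit. Unadjusted p-values below 0.05 were found for 7 members and for 1256 genes (7.96%). Besides Rps7, Rps4l and Rpl39l, they were Rps13 (0.82 ± 0.20), Rps18 (1.11 ± 0.43), Rps15a (0.47 ± 0.18) and Rpl21 (-0.77 ± 0.32). The PR+/-, Dnmt3a-/- arrays had Rps15a at 6.94, 7.19, 6.81 and 7.26 and Rps18 at 7.31, 8.12, 7.95 and 7.5. This comparison and that of PR+/- with wild-type GMP share the 2 PR+/- arrays, on which both genes were low. The GMP and primary granule genes (6 measured) averaged 10.64 and 10.65 in PR+/- GMP and 9.31 to 10.04 in PR+/-, Dnmt3a-/- GMP. Their part in the members' changes was not tested either. Rpl37 changed by -0.87 ± 0.70 (adjusted p = 0.733). Over the members the median change was -0.09, with 12 of 28 above 0, where the median of all genes was -0.03. Without the 5 arrays of high immediate early genes the members' median was 0.058, with 19 of 28 above 0.

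Between PR+/-, Dnmt3a-/- and Dnmt3a-/- GMP no member passed limma's test, where 1.24% of all genes did, and 7 members had an unadjusted p below 0.05 (15.1% of all genes did). The members were lower on the whole: 5 of 28 changes were above 0 with a median of -0.25, where 56.0% of all genes were above 0 with a median of 0.04. With brighter probe sets only, 4 of 26 members were above 0 with a median of -0.21, and the median of all genes was -0.02. Groups did not overlap for 8 members, all lower with PR (6.69% of all genes). Rps27 was at 10.73, 11.09, 11.27 and 11.47 in PR+/-, Dnmt3a-/- GMP, below the 11.55 to 12.08 of Dnmt3a-/- GMP, a change of -0.67 ± 0.19 (adjusted p = 0.115). Rps7 changed by -0.88 ± 0.37, Rpl4 by -0.75 ± 0.37 and Rplp0 by -0.74 ± 0.26, while Rpl21 and Rps4l changed by 0.15 each and Rpl31 by 0.08, with adjusted p from 0.205 to 0.935.

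The difference between the Dnmt3a effects with and without PR passed for no member and for 0.0317% of all genes in limma's test, with 6 members at an unadjusted p below 0.05 (14% of all genes). Rps27 had -0.99 ± 0.28 (adjusted p = 0.203), Rpl26 -1.15 ± 0.56, Rpl37 -0.80 ± 0.90, Rps15a 0.67 ± 0.23, Rps18 1.15 ± 0.51 and Rpl39l 0.61 ± 1.14. The comparison rests on the same PR+/- arrays as before. For Rps27 the lowest PR+/-, Dnmt3a-/- levels, 10.73 and 11.09, were on replicates 1 and 2, with high immediate early genes. The median over the members was -0.25, with 5 of 28 above 0. Without the 5 arrays of high immediate early genes it was -0.09, with 9 of 28 above 0.

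**Figure D4:**
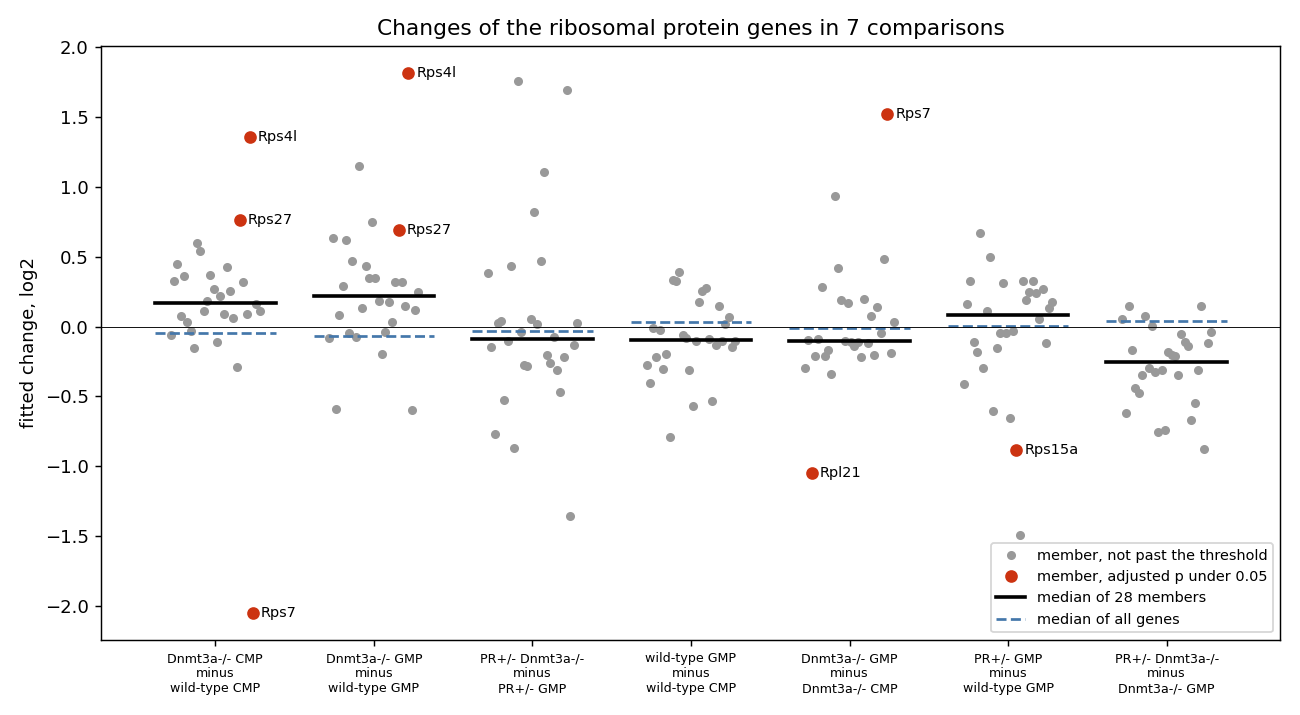
Fitted change of each of the 28 genes (points; log2, vertical axis) in 7 comparisons, with called genes in red and named, the members' median as a solid line and the median of all genes as a dashed line. The solid line lies above the dashed one for both Dnmt3a comparisons without PR (0.17 and 0.22). It lies below the dashed one for Dnmt3a loss with PR (-0.09) and for PR+/-, Dnmt3a-/- against Dnmt3a-/- GMP (-0.25).

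The mean over the 28 members showed the size of these shifts by array. It was 8.52, 8.73 and 8.63 in wild-type CMP and 8.70, 8.85 and 8.80 in Dnmt3a-/- CMP, which overlap. In GMP it was 8.38, 8.56, 8.67 and 8.55 in the wild type and 8.85, 8.86 and 8.72 without Dnmt3a, which do not. It was 8.47 and 8.54 on the PR+/- arrays and 8.29, 8.46, 8.68 and 8.70 on the PR+/-, Dnmt3a-/- arrays. The 5 arrays of high immediate early genes had member means of 8.29 to 8.56 and the other 14 of 8.47 to 8.86. Without those 5 arrays the median change between PR+/-, Dnmt3a-/- and Dnmt3a-/- GMP was -0.12 (10 of 28 above 0), and those for Dnmt3a loss without PR were 0.14 in CMP and 0.17 in GMP.

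Genes that work beside the ribosomal proteins were taken from fixed lists. Of 13 measured translation factors and other TOP mRNAs of 21 listed (among them Eef2, Eef1b2 and Pabpc1), none was called in any of the 10 comparisons, and their median change was 0.13 in CMP and 0.02 in GMP without Dnmt3a. Between PR+/-, Dnmt3a-/- and Dnmt3a-/- GMP, 1 of the 13 was above 0, with a median of -0.21. Rpl7l1, the 1 measured paralogue of 5 outside the rule, was called in none of the 10.

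Ribosome biogenesis genes transcribe and process ribosomal RNA. Of 37 measured of 42 listed, 6 fell and none rose in PR+/- against wild-type GMP, where 3.07% of all genes were called and 0.881% were called lower. Of the 37 changes 6 were above 0, with a median of -0.38. The 6 were Utp20 (-0.75 ± 0.15, adjusted p = 0.0191), of the small subunit processome, Nolc1, a nucleolar phosphoprotein, Polr1a (-0.64 ± 0.13, adjusted p = 0.0199), the largest subunit of RNA polymerase I, Nat10 (-0.77 ± 0.17, adjusted p = 0.0278), an RNA acetyltransferase, Gnl3 (-0.87 ± 0.21, adjusted p = 0.0428), nucleostemin, and Tsr1. The median over the ribosomal protein genes in the same comparison was 0.08, and 0.009 without wild-type GMP replicate 1 or PR+/- replicate 2, 0.023 without PR+/- replicate 1 and 0.013 with brighter probe sets. The difference between the lists was not tested. The list mean was 8.13 to 8.37 on the wild-type GMP arrays and 7.75 and 8.02 on PR+/- replicates 1 and 2. The 6 calls rest on these 2 PR+/- arrays and were not examined without either of them. For Dnmt3a loss without PR, Nolc1 fell by 0.39 for the mean of CMP and GMP (adjusted p = 0.0421), and no other gene of the list was called.

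**Figure D5:**
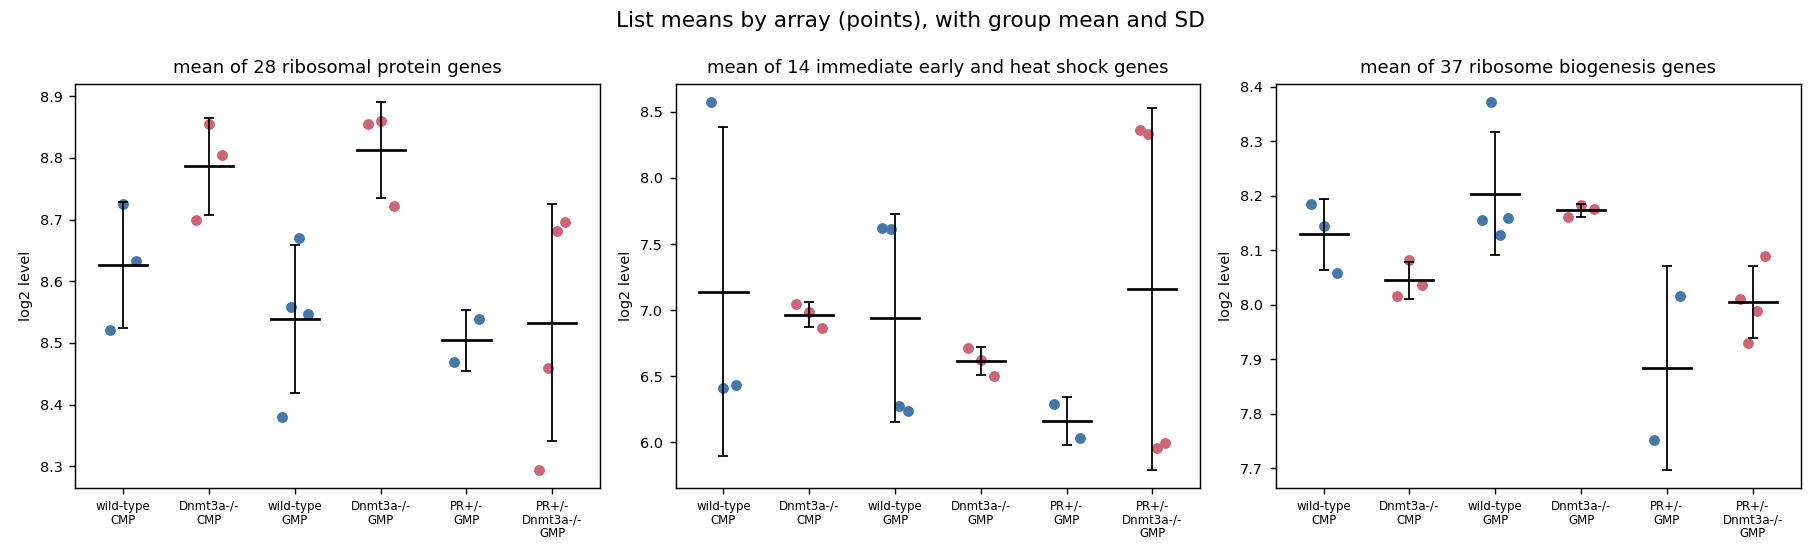
Mean log2 level (vertical axes, each panel on its own scale) over the 28 ribosomal protein genes, the 14 immediate early and heat shock genes and the 37 ribosome biogenesis genes on each array (points) in the 6 groups, with group mean and standard deviation. The 5 arrays at 7.62 or above in the middle panel have ribosomal protein means of 8.29 to 8.56, and the PR+/- arrays are at 7.75 and 8.02 in the biogenesis panel, below the wild-type GMP arrays.

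Of 21 measured regulators of 23 listed, Mycn, a transcription factor of the Myc family that drives ribosome production, was lower in GMP than in CMP in the wild type (-1.31 ± 0.30, adjusted p = 0.0241) and without Dnmt3a (-1.35 ± 0.32, adjusted p = 0.0154). The mTOR pathway genes Rictor (-0.81 ± 0.21, adjusted p = 0.0256) and Tsc1 (-0.51 ± 0.14, adjusted p = 0.0338) fell and the Myc antagonist Mxi1 rose (0.76 ± 0.21, adjusted p = 0.0373) between Dnmt3a-/- CMP and GMP. No regulator was called in the Dnmt3a or PR comparisons.

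The 70 mitochondrial ribosomal protein genes, which are encoded in the nucleus and serve the ribosome of mitochondria, were also compared between GMP and CMP. In the wild type 54 of 70 changes were above 0 (median 0.12), and 1 gene was called, lower, where 4.3% of all genes were called. Without Dnmt3a 67 of 70 were above 0 (median 0.33), and 5 were called higher and 1 lower, where 5.5% of all genes were called higher and 4.58% lower. Mrpl58 (0.71 ± 0.14, adjusted p = 0.0043), Mrps25 (0.58 ± 0.13, adjusted p = 0.0098) and Mrps35 (0.54 ± 0.15, adjusted p = 0.0317) rose in the latter, and Mrpl52 fell by 1.0 (adjusted p = 0.0011). Mrpl52 was the 1 of the 70 called for Dnmt3a loss in CMP, where it rose by 0.78 ± 0.16 (adjusted p = 0.0295), and it rose in PR+/- GMP by 0.85 ± 0.21 (adjusted p = 0.0457).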

How the data were processed

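The table the authors deposited gives a linear intensity for every exon-level probe set on every array. The submitters' processing notes list RMA, Partek and mm9 but no role or version of any. Log2 was taken. Probe sets with 1 gene symbol (179496 of 194293) were averaged per gene after updating symbols through RefSeq names. Members and lists were chosen with earlier results of these data known. Named are members past the threshold, the 3 largest rises and falls of a comparison with under 4 such members, the 3 highest and lowest levels, a set of fixed members, and called genes of the side lists.

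Genes were tested with limma 3.58.1 (R 4.3.3): lmFit and eBayes on the 13 arrays without PR, on the 6 PR+/- arrays for Dnmt3a loss with PR, and on the 13 GMP arrays for the effect of PR. The script was checked on simulated data. Alternatives were other summaries of probe sets, scalings, an offset of 16 on the intensity, other sets of arrays, array weights, a Y-linked covariate, blocks and leaving out arrays. Replicate numbers are shared by the PR+/- groups only. The correlation of same-numbered arrays' deviations was 0.08 and 0.02, so they were not treated as pairs. With only 2 PR+/- arrays these values are not independent and say little about pairing. Arrays with adjacent title numbers were also treated as separate. As random pairs (correlation 0.18) they gave 591 called genes for the mean of CMP and GMP, against 907. Rps4l, Rps27 and Rps7 kept that limma call (adjusted p = 0.00068, 0.0030 and 0.0198). The number of arrays limits the precision. The RefSeq gene and promoter tables are of GRCm38.p6, another build than the authors'.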

Additional observations from a re-analysis of the deposited data

Results flagged for a closer look

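In groups of 4 arrays, 1 array stood far from the other 3 for 2 of the 46 member and group combinations examined, where chance gives about 1 in 20. Rpl26, of the large subunit, was at 4.79 on wild-type GMP replicate 1 and at 5.87 to 5.94 on the other wild-type GMP arrays. Rpl3l was at 3.65 on PR+/-, Dnmt3a-/- replicate 1 and at 4.07 to 4.13 on the other arrays of that group. Both arrays are among the 5 with high immediate early genes, and the part of that in the values was not tested.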

How the results depend on the processing

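Of the settings tried on called members, 161 kept the call and 42 lost it, and no called member reversed. With the Y-linked level as a covariate no member was called by limma in CMP, GMP or their mean (0 each, with 3, 6 and 7 at an unadjusted p below 0.05). Array weights gave 6 calls for GMP, 7 for the mean of both, 4 for Dnmt3a-/- GMP against CMP and 2 for PR+/- against wild-type GMP; over all 15781 genes they gave 1733, 3248, 3853 and 1045. The GMP count was 1 with the median of probe sets, with only the groups compared, and without the 5 arrays of high immediate early genes. Over all genes these settings gave 99, 75 and 223, against 210 as reported. The count for the mean of both was 6 with the offset of 16 and 5 without those 5 arrays. Over all genes these gave 1150 and 1261, against 907 as reported. The count for PR+/- against wild-type GMP was 2 with brighter probe sets, with the offset and with all 19 arrays in 1 fit. Over all genes these gave 561 (of 12190), 743 and 850, against 484 as reported. With all 19 arrays in 1 fit, 1 member was called for PR+/-, Dnmt3a-/- against Dnmt3a-/- GMP. Over all genes that fit gave 315 there, against 195 as reported.

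Over all genes, leaving out 1 array gave 61 to 211 calls for Dnmt3a loss in CMP, 49 to 262 in GMP and 371 to 1031 for their mean. Among the members, leaving out 1 array gave 0 to 1, 1 to 3 and 3 to 5 calls for these comparisons. It gave 0 to 1 for wild-type GMP against CMP, 1 to 2 for Dnmt3a-/- GMP against CMP and 0 to 3 for PR+/- against wild-type GMP. The highest of these came without wild-type GMP replicate 2 for the mean of both and for PR+/- (5 and 3), and without it or wild-type CMP replicate 3 for wild-type GMP against CMP (1 each); the 0 for PR+/- came without PR+/- replicate 1. It left 0 for Dnmt3a loss with PR, for PR without Dnmt3a and for both differences of effects. The shared replicate numbers of the PR+/- groups do not pair the arrays beyond a number; with the replicate block 0 members were called for Dnmt3a loss with PR, and the median change was -0.25 (-0.09 as reported). That median was 0.058, with 19 of 28 above 0, without the 5 arrays, and ranged from -0.19 to -0.024 over arrays left out. The medians over the members moved by more than the spread in 4 of 181 settings.

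Reversals concern members that were not called. For Dnmt3a loss in CMP, Rpl31 turned to 0.46 with the median of probe sets, 0.041 without the 5 arrays and 0.24 with the Y-linked covariate, and ranged from -0.45 to 0.043 over arrays left out. Rpl37 turned to -0.067 without the 5 arrays and -0.11 with the covariate, and ranged from -0.067 to 1.0 over arrays left out. For the mean of both, Rpl10a ranged from -0.14 to 0.0043 over arrays left out. For the difference of effects, Rpl39l turned to -0.0051 with brighter probe sets and ranged from -0.26 to 1.55. For wild-type GMP against CMP without the 5 arrays, Rpl37, Rpl39l and Rps13 turned to -0.095, -0.11 and 0.20, and Rpl37 ranged from -0.33 to 0.78 over arrays left out. For PR+/- against wild-type GMP, Rpl37 ranged from -0.30 to 1.30. For PR without Dnmt3a, Rpl31 turned to -0.33 with the median and -0.19 with brighter probe sets, -0.036 with the offset, -0.15 with array weights and -0.30 without the 5 arrays, and ranged from -0.21 to 0.24 over arrays left out. There Rpl21 ranged from -0.034 to 0.38 and Rps4l from -0.21 to 0.54. For the difference with PR, Rpl37 ranged from -1.60 to 0.0035, and Rpl39l turned to -0.54 with array weights and ranged from -0.33 to 1.48. The cause was not tested.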

Other observations

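Some genes beside Rps7 also differed between Dnmt3a-/- and wild-type arrays without PR. The neighbours were looked at after the values of Rps7 had been seen. Of the 3 nearest measured genes on each side in the RefSeq gene order, 4 of 6 were called for the mean of CMP and GMP, where 5.75% of all genes were. Adi1, an enzyme of methionine salvage, rose by 0.85 ± 0.11 (adjusted p = 0.00085), with no overlap in CMP or GMP. Trappc12, a vesicle tethering factor, changed by -0.68 ± 0.11 (adjusted p = 0.0037) and is among the 15 genes that separate every Dnmt3a-/- array from every other. Rnaseh1 changed by -0.51 ± 0.11 (adjusted p = 0.016) and Cmpk2 by -0.51 ± 0.10 (adjusted p = 0.0131). Allc and Sox11 changed by -0.04 ± 0.10 and 0.04 ± 0.13 and were not called. Between PR+/-, Dnmt3a-/- and PR+/- GMP, where no gene of the 15781 passed limma's test (1256 had an unadjusted p below 0.05), Adi1 changed by 0.03 ± 0.17, Rnaseh1 by 0.04 ± 0.19, Cmpk2 by -0.33 ± 0.23 and Trappc12 by -0.52 ± 0.14. Rps7 and Dnmt3a both lie on chromosome 12 in GRCm38.p6. None of the 3 nearest measured genes on each side of Rps4l or Rps27 was called in that comparison; the lowest adjusted p among them were 0.0771 for Dennd5b and 0.0657 for Tpm3.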
